A study of Arabidopsis thaliana with 16 samples.

Results

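The 144 probe sets described here were at least 1.0 log2 unit higher in gynoecia of the seu ant double mutant than in wild type, while the mean of each single mutant stayed within 0.5 log2 units of wild type. A probe set is a group of array probes for 1 transcript or a few. The group was chosen from the genotype means of the log2 signal over 4 arrays per genotype, with signals under 16 set to 16, and a mean of at least 7 in seu ant was also required. It made up 0.633% of the 22746 probe sets on the array. Of the 8 genes that the rule left out by name, 0 met both windows for the single mutants, so leaving them out did not change the group. The rule used the means of all 4 genotypes, so the differences between genotypes are given for these probe sets as a description, with no test.

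SEU encodes a transcriptional co-regulator without a DNA-binding activity of its own, and ANT an AP2-type transcription factor. Both act in the carpel margin meristem, the ridge inside the gynoecium from which ovule primordia arise, and the double mutant initiates no ovules there although each single mutant still does. Among the genes of the group with a described role are a glucosinolate transporter, an enzyme of nitrogen assimilation and enzymes that modify hormones. Others encode proteins that loosen or modify the cell wall, glutathione transferases and oxidoreductases, and chloroplast proteins.

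Wild type was Columbia-0 (Col-0), the single mutants carried seu-3 or ant-1, and the double mutant carried both alleles; they are written seu, ant and seu ant here. Gynoecia of floral stages 8 to 10 were dissected by hand, and each of the 4 arrays of a genotype was hybridized with RNA from its own pool of 15 to 25 gynoecia. All plants grew under 16 h of light at 24 °C. Each gene was mutated by 1 allele only, and whole gynoecia were used, so the values are averages over all their tissues. In such samples fewer cells of a type and less RNA per cell cannot be told apart.

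The median signal of an array lay between 153 and 189, between 20.0% and 24.4% of its probe sets were under the floor of 16, and arrays of the same genotype correlated at r = 0.972 to 0.986. As a check of the labels, log2 SEU signal changed by -1.72 between wild type and seu (limma adjusted p = 0.000274), by -1.82 between wild type and seu ant (limma adjusted p = 1.01e-05) and by -0.12 between wild type and ant (limma adjusted p = 0.773), each with a standard error of 0.17. ANT was not analysed here. By the test across all probe sets (limma, a log2 difference over 0.35 with an adjusted p under 0.05), 1.27% of probe sets were higher and 0.914% lower in seu, and 1.89% were higher and 3.03% lower in ant. With each array centred on its median the balance in ant turned, with 1101 probe sets higher and 297 lower in place of 430 and 690, and without 1 array the calls in ant ran from 214 to 448 higher and from 313 to 781 lower. Of the carpel markers, SPT was the 1 of 6 that could be named here, and its signal spanned 915 to 1372 in wild type, while seu gave 558 to 954, ant 645 to 994 and seu ant 365 to 534. Of the tapetum and anther markers 4 of 8 were named, AMS, AT5G07230, SPL and MEE48. Their summed signal spanned 38.8 to 143 in wild type, while seu gave 23.6 to 73.5, ant 46.1 to 95.2 and seu ant 22.6 to 57.4. All 4 were near the floor in every genotype and none passed the test, and the sums include signals under the floor. Of the pollen markers 1 of 3 was named, AT5G45880, whose signal ranged over 219 to 3392 in wild type, over 6.01 to 497 in seu, over 56.8 to 1651 in ant and over 13.8 to 108 in seu ant. Of the ovule and integument markers INO and TSO1 were named, 2 of 5. Their sum spanned 919 to 1512 in wild type, while seu gave 1252 to 1503, ant 1344 to 1693 and seu ant 987 to 1112. Every seu ant array was below those of both single mutants, but inside the wild-type span. TSO1 carried this sum, and INO was near the floor in every genotype. Neither passed the test in seu ant, where INO changed by 0.41 and TSO1 by -0.29 (limma adjusted p = 0.521 and 0.158). Of the stomatal markers 3 of 6 were named, SPCH, MUTE and FMA. Their summed signal ran from 33.3 to 93.6 in wild type and from 75.3 to 156 in seu. It ran from 104 to 189 in ant and from 192 to 434 in seu ant. SPCH carried this increase, with a change of 2.61 in seu ant (limma adjusted p = 0.000619). MUTE and FMA were near the floor, and their changes of 0.39 and 0.47 in seu ant did not pass (limma adjusted p = 0.371 and 0.479). The part of these markers in the values below was not tested.

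How many of the probe sets raised in seu ant stayed within 0.5 log2 units of wild type in both single mutants? In all, 751 probe sets had a difference of at least 1.0 and a mean of at least 7 in seu ant, and 144 of them, 19.2%, lay within both windows. More often, the mean was above the window in seu and within it in ant (257 probe sets, 34.2%), and in 199 (26.5%) the means of both single mutants were above the window. The reverse arrangement, above the window in ant and within it in seu, was found in 61. A further 36 were within the window in seu and below it in ant, and 3 were below it in seu and within it in ant. Those were above the window in neither single mutant, but the rule leaves them out. Of the 10334 probe sets with a level of at least 7 in seu ant and both single mutants within the window, the 144 made up 1.39%. A mirrored rule for falls, with a wild-type mean of at least 7 and a fall of at least 1.0, found 106 probe sets.

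**Figure D1:**
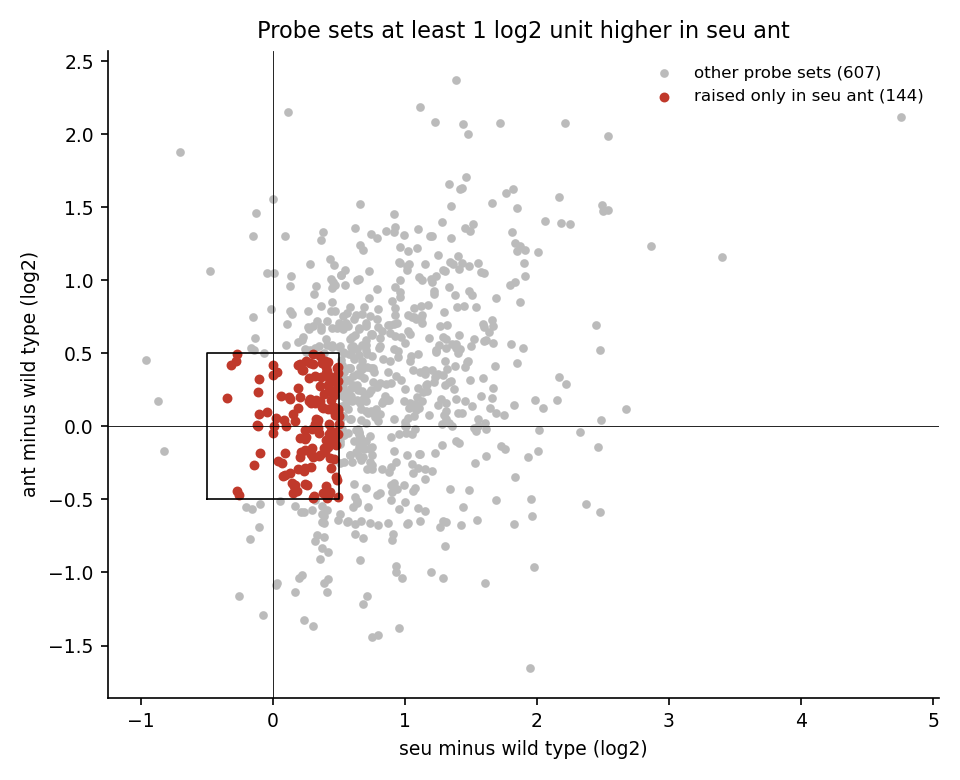
The change in seu (horizontal axis, log2) against the change in ant (vertical axis, log2), each relative to wild type, for the 751 probe sets that were at least 1.0 log2 unit higher in seu ant. Red points in the box are the 144 within 0.5 log2 units of wild type in both single mutants, 128 of them on the right side of its centre, where seu was above wild type.

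Within the window, the placement of the single mutants is read from the means that the rule used, and the wild-type arrays are shared by all 3 differences, so it is given as a description only. The seu mean was above wild type in 128 of the 144 probe sets and not above it in 16, with a median change of 0.32 and a range from -0.35 to 0.50. The ant mean was above wild type in 82 and not above it in 62, with a median of 0.04 and a range from -0.49 to 0.50. With each array centred on its median the medians were 0.39 in seu and 0.20 in ant, where those of all probe sets were 0.06 and 0.14, and after quantile normalization they were 0.36 and 0.16. Over the 10334 probe sets within both windows and bright enough, which were not selected on a difference in seu ant, seu was above wild type in 45.6% and ant in 46.4%. The change in seu was over 0.25 in 88 members of the group and under -0.25 in 6, whereas the change in ant was over 0.25 in 38 and under -0.25 in 30. Both single mutants were above wild type in 71, seu alone in 57, ant alone in 11 and neither in 5. The 5 were AT1G25275, AT5G09820, AT2G28810 and the unnamed 263012_at and 248566_s_at, which were higher than wild type in the double mutant alone. The median difference of seu ant from wild type was alike in these 4 classes, from 1.24 in the 71 and the 11 to 1.34 in the 57, with 1.31 in the 5.

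The difference between seu ant and wild type ranged from 1.0 to 3.98, with a median of 1.27, which is 2.42-fold. It was over 2 in 14 probe sets, between 1.5 and 2 in 29 and between 1 and 1.5 in 101. The median difference of seu ant from seu was 1.04 (0.54 to 3.49) and from ant 1.33 (0.56 to 4.35). The part of the seu ant difference that exceeded the sum of both single-mutant changes had a median of 1.05 and ran from 0.13 to 3.86. It was smallest in the unnamed 251900_at (0.13) and in AT4G16140 (0.24), whose small changes in both single mutants add up to most of the double-mutant difference, and largest in AT1G11850. The lower bounds of these ranges follow from the rule. Over all 22746 probe sets the median difference was -0.03 in seu ant, -0.02 in seu and -0.02 in ant.

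The seu ant arrays were above all 4 wild-type arrays in 134 of the 144 probe sets, where 8.84% of all probe sets met that condition, and above all 12 other arrays in 116, where 3.83% did. Both are conditions that the rule favours, and nothing is read from them. The 4 seu ant arrays were not equal: the median of the 144 above their wild-type mean was 1.55 on replicate 1, 1.44 on replicate 2, 1.02 on replicate 3 and 1.25 on replicate 4. Replicate 1 was the highest seu ant array in 74 probe sets, and replicate 3 was the lowest in 83. The same median was between 0.20 and 0.48 on the seu arrays, between -0.08 and 0.15 on the ant arrays and between -0.19 and 0.18 on the wild-type arrays, a separation that the rule fixes.

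The numbers that open the sample titles run on without a gap over all 16 arrays. In their order the sequence of genotypes repeats after 8 arrays, and the arrays were split there. Each set has 2 arrays of every genotype, replicates 1 and 2 in the first and 3 and 4 in the second. The labels do not mark this split or say what these title sets are. Against the wild-type arrays of the same set, the median difference of the 144 in seu ant was 1.52 in the first set and 1.07 in the second, and it was larger in the first set in 126 of the 144. The median change in seu was 0.50 in the first set and 0.07 in the second, and in ant 0.21 and -0.09. In the first set 140 of the 144 were at least 1.0 higher in seu ant, in the second 84, and in both 80. The rule applied to each set alone found 169 probe sets in the first, 49 of them among the 144, and 149 in the second, 64 of them among the 144, and 16 of the 144 met the rule in both. What sets the title sets apart was not tested. Over all probe sets the median difference in seu ant was 0 in the first set and -0.02 in the second.

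**Figure D2:**
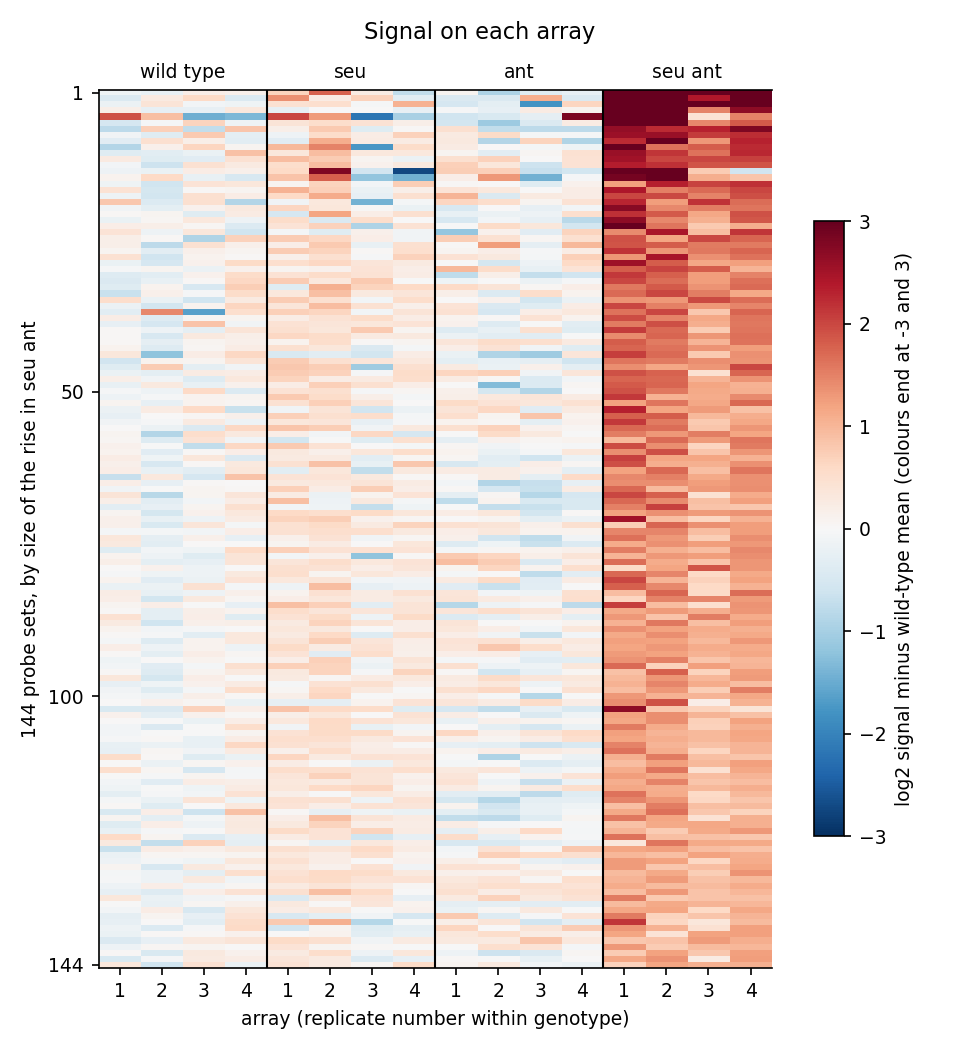
Log2 signal minus the wild-type mean (colour) of the 144 probe sets (rows, by size of the difference) on each of the 16 arrays (columns, 4 per genotype). The 4 seu ant columns are red in nearly every row, with replicates 1 and 2 the deepest, the seu columns are mostly pale red, and the ant columns are mixed.

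A gene could be named for 72 of the 144 probe sets, all different genes, 4 were paired with several genes and 68 with no gene in the annotation used here. The median difference in seu ant was 1.26 for the 72 with 1 gene and 1.28 for the other 72. In the group as a whole the wild-type level ran from 4.24 to 12.9 on the log2 scale, with a median of 7.68 beside 7.51 for all probe sets. The level of a probe set depends on its probes as well as on the transcript, so levels order signals and not transcripts. The largest differences were in dim probe sets: the median was 1.86 in the 18 with a wild-type level under 6, 1.39 in the 65 between 6 and 8, 1.13 in the 44 between 8 and 10 and 1.12 in the 17 above 10. Part of this order is set by the rule, since a probe set at a wild-type level under 6 must differ by more than 1.0 to reach 7 in seu ant.

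**Figure D3:**
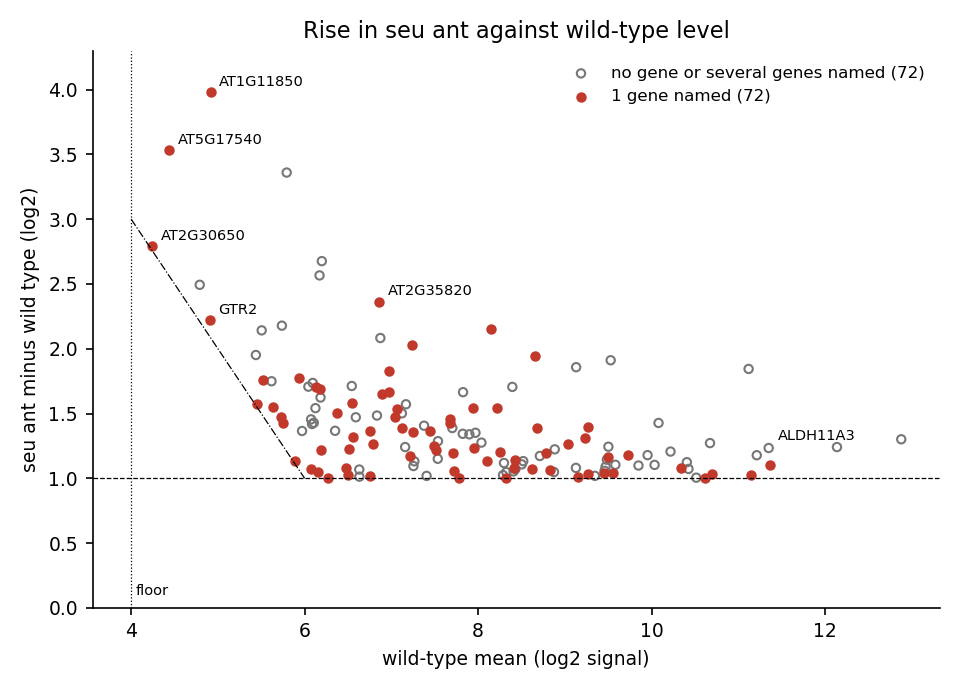
The difference between seu ant and wild type (vertical axis, log2) against the wild-type mean (horizontal axis, log2 signal) for the 144 probe sets, filled where 1 gene is named. The dashed and dash-dotted lines are the limits set by the rule and the dotted line is the floor; the 5 named genes with the largest differences, AT1G11850, AT5G17540, AT2G30650, AT2G35820 and GTR2, all lie on the left, at wild-type means from 4.24 to 6.86.

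The gene with the largest difference was AT1G11850, for which the sources used here give no function. Its signal was 27.7, 25.9, 34.6 and 33.5 in wild type, 48.2, 103, 35.8 and 18.2 in seu, 31.8, 15.7, 23.0 and 25.5 in ant, and 1135, 337, 328 and 414 in seu ant. All 4 seu ant arrays were above the other 12, and replicate 1 was far above the other 3. The difference was 3.98 (standard error 0.48), or 15.8-fold, while the changes were 0.49 in seu and -0.37 in ant. AT5G17540 followed with 3.53 (standard error 0.58). Its wild-type signals were 4.55, 26.2, 33.0 and 1.95, its seu signals 55.8, 25.6, 35.02 and 17.3, its ant signals 5.94, 11.9, 46.5 and 4.51, and its seu ant signals 873, 185, 114 and 214. Here 2 wild-type and 3 ant arrays, but no seu array, were under the floor.

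AT2G30650 had the lowest wild-type level of the group and was likewise near the floor in 3 genotypes. It measured 21.5, 14.9, 8.80 and 23.5 in wild type, 4.18, 19.1, 19.0 and 1.86 in seu, 18.5, 1.24, 22.4 and 20.1 in ant, and 159, 289.6, 53.1 and 122 in seu ant, a difference of 2.79 (standard error 0.37). The changes were -0.12 in seu and 0.01 in ant. In AT2G35820, which the tables of the study list as an unknown protein, all arrays were clear of the floor. Its signals were 108, 89.8, 200.5 and 94.2 in wild type and 692, 695, 495 and 539.6 in seu ant, a difference of 2.36 (standard error 0.26), and seu and ant stayed between 104 and 189. The unnamed probe set 260943_at differed by 3.36 (standard error 0.41), with 49.4, 72.6, 52.0 and 50.7 in wild type, 76.4, 79.0, 54.3 and 114 in seu, 39.0, 45.4, 4.61 and 87.3 in ant, and 449.7, 674, 458 and 757 in seu ant.

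In some of these probe sets the arrays of a genotype were far apart. AT2G20870 had even wild-type signals of 136, 131, 176 and 167, but seu signals of 230.1, 1049, 102 and 22.7 and seu ant signals of 3083, 1829, 259 and 99.7. Its lowest seu ant array was below all 4 wild-type arrays, and the difference of 2.03 had a standard error of 1.15; without seu ant replicate 1 it was 1.25. The arrays split by title set: the difference in seu ant was 4.15 in the first set and -0.10 in the second, and the change in seu was 1.88 and -1.83. The unnamed probe set 246880_s_at, whose suffix marks probes that match more than 1 transcript, was spread in wild type too, with 278, 137, 26.5 and 28.8 in wild type, 297, 178, 3.68 and 37.6 in seu, 48.5, 53.3, 60.9 and 519 in ant, and 3469, 689, 98.4 and 206 in seu ant. Over the group, the standard deviation of the log2 signal was over 1 in 8 probe sets in seu ant, 5 in seu, 3 in ant and 2 in wild type, with medians of 0.36, 0.29, 0.27 and 0.33.

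The smallest standard errors were found in AT3G17020 and AT5G45950, both with high signals. AT3G17020 measured 2272, 1954, 2369 and 2540.3 in wild type, 2783, 2313, 2908 and 2428 in seu, 1892, 1879, 1836 and 1819.8 in ant, and 4401, 4965, 4598 and 4538 in seu ant. The difference of 1.02 had a standard error of 0.08, and the seu ant arrays stood clear of all others. AT5G45950 measured 1494, 1899, 1534 and 1736 in wild type, 2012, 2173, 2013 and 1725 in seu, 2167, 2361, 2307 and 2214 in ant, and 3582, 3192, 3211 and 3593 in seu ant, a difference of 1.03 (standard error 0.09); here ant was 0.45 above wild type. The highest signals of the group came from the unnamed 259008_at, which measured 7966, 5243, 8294 and 9312 in wild type, 11318, 10683, 11232 and 9468 in seu, 8801, 9484, 5165 and 7762 in ant, and 17449.9, 19340.4, 18277 and 19281 in seu ant, and its change of 0.50 in seu was the largest that the window admitted.

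Transport and nitrogen assimilation held GTR2 and GLU1. GTR2, a glucosinolate transporter of the NRT1/PTR family, measured 23.9, 42.1, 33.7 and 24.1 in wild type, 23.9, 63.5, 35.4 and 35.6 in seu, 36.8, 16.2, 47.4 and 4.45 in ant, and 142, 248, 74.3 and 148 in seu ant. The difference was 2.22 (standard error 0.44), or 4.67-fold, and no seu ant array overlapped another genotype. GLU1, the ferredoxin-dependent glutamate synthase of the chloroplast, measured 63.2, 51.1, 79.2 and 109 in wild type, 103, 111, 93.9 and 88.2 in seu, 71.7, 50.5, 65.0 and 109 in ant, and 426, 255, 162 and 171 in seu ant, a difference of 1.69 (standard error 0.32). In GLU1, as in AT1G11850, seu ant replicate 1 was the highest array, and the difference was 2.54 in the first title set and 0.84 in the second. Of the 13 measured genes of the list of glutamine, nitrate and ammonium genes, which takes in the NRT1/PTR family, 4 passed the test as higher in seu ant and 0 as lower, with a median of 0.38. GTR2 and GLU1 are among the 4, and here as in the other lists the genes of the group pass because the rule selected them. Over all probe sets 8.3% passed as higher and 11.4% as lower, with a median of -0.03. Over all named genes, taken like the lists at the brightest probe set of a gene, 6.94% passed as higher and 10.7% as lower. Those shares stand beside every list and family below. The other 2 of the 4 genes were AT3G21670, which rose by 1.81 (standard error 0.32, limma adjusted p = 0.00124) and AT1G68570, which rose by 1.38 (standard error 0.20, limma adjusted p = 0.000327). Their changes in seu were 0.71 and 0.85, larger than the window allows. That of AT1G68570 passed the test (limma adjusted p = 0.0469) and that of AT3G21670 did not (limma adjusted p = 0.355). GTR1, also a glucosinolate transporter, had a change of 0.16 in seu ant that did not pass (limma adjusted p = 0.161).

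Enzymes acting on hormones were represented by BAT1 and ILL6. BAT1, an acyltransferase that acts on brassinosteroids, measured 96.8, 46.1, 75.8 and 71.7 in wild type, 77.5, 98.05, 68.9 and 113 in seu, 95.5, 85.7, 66.9 and 116 in ant, and 175, 388, 182 and 219 in seu ant, a difference of 1.70 (standard error 0.28). Both single mutants were slightly above wild type, by 0.32 and 0.35. ILL6 belongs to a family of enzymes that split conjugates of plant hormones with amino acids. ILL6 measured 318, 222, 159.7 and 178 in wild type, 252, 281, 141 and 177 in seu, 311, 179, 229 and 207 in ant, and 659, 398, 388 and 368 in seu ant. Its difference of 1.06 (standard error 0.28) was near the limit of the rule, and its changes of -0.05 in seu and 0.10 in ant were among the small ones. None of the 30 measured genes on the auxin and brassinosteroid response list belonged to the group; 3 of them passed the test as higher in seu ant and 4 as lower.

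On the cell wall lists, the group held EXPB3, a beta-expansin that loosens the wall, and ATPMEPCRB (pectin methylesterase 41), which removes methyl groups from pectin. The lists were matched by symbol or name, so cell wall genes among the members carried here by a locus number only can be missed. EXPB3 measured 450.1, 411, 246 and 631 in wild type, 711, 556, 417 and 395 in seu, 428, 384, 409 and 405 in ant, and 1594, 1075, 640.4 and 1222 in seu ant, a difference of 1.39 (standard error 0.30). Its seu ant replicate 3 was above every wild-type array but below the highest seu array. ATPMEPCRB measured 148, 75.8, 201 and 170.1 in wild type, 161, 132, 217 and 98.1 in seu, 139, 209.8, 171 and 138 in ant, and 408, 345, 407 and 317 in seu ant, a difference of 1.39 (standard error 0.29), with no overlap. Among the 31 measured xyloglucan and expansin genes, 4 passed the test as higher in seu ant and 2 as lower, with a median of 0.01. EXPB1, the beta-expansin on the list that passed in the other direction, fell by 1.15 (standard error 0.23, limma adjusted p = 0.00316). Of the 9 measured pectin genes 3 passed as higher and 0 as lower, with a median of 0.49. AT2G26440 rose by 0.94 in the double mutant (standard error 0.22, limma adjusted p = 0.00712), and its rise of 0.91 in seu also passed (limma adjusted p = 0.0488).

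Glutathione transferases of the tau class join glutathione to small molecules, and 2 of them belonged to the group. GSTU23 measured 63.5, 38.1, 28.9 and 52.4 in wild type, 74.2, 60.7, 41.2 and 63.4 in seu, 44.4, 47.9, 29.9 and 38.7 in ant, and 112, 108, 172 and 139 in seu ant, a difference of 1.58 (standard error 0.26). GSTU16 measured 94.6, 189.7, 107 and 276 in wild type, 201, 203, 187 and 156 in seu, 157, 180.3, 126 and 232 in ant, and 412, 432, 332 and 390.0 in seu ant, a difference of 1.36 (standard error 0.29). In both, every seu ant array was above the other 12, although the wild-type arrays of GSTU16 were spread widely. Of the 65 measured glycosyltransferases and glutathione transferases, 10 passed the test as higher in seu ant and 5 as lower, with a median of 0.01. GSTU20 rose by 2.69 (standard error 0.33, limma adjusted p = 9.09e-05) and had a change of 1.37 in seu, while UGT74F1 fell by 3.28 (standard error 0.31, limma adjusted p = 1.38e-05). A probe set shared by UGT71D1 and AT2G29710 and one shared by CYP71B20 and CYP71B19 were also in the group, with differences of 2.14 (standard error 0.26) and 2.18 (standard error 0.57), and their signals cannot be assigned to either gene.

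Among the oxidoreductases of the group were also ALDH11A3, from the redox list, and NQR, which is on none of the lists. ALDH11A3, the non-phosphorylating glyceraldehyde-3-phosphate dehydrogenase, had the highest signals among the named genes, with 2261, 2318, 2259 and 4071 in wild type, 3589, 3409, 3007 and 2711 in seu, 2212, 2160.3, 1711 and 1923 in ant, and 7383, 5372, 4830.4 and 5312 in seu ant. Its difference was 1.10 (standard error 0.19), and its change in ant was -0.40. NQR, a quinone oxidoreductase that uses NADPH, measured 253, 139, 232 and 237 in wild type, 254, 332, 274 and 240.4 in seu, 272, 212, 208 and 227 in ant, and 430.2, 630.1, 393 and 498 in seu ant, a difference of 1.19 (standard error 0.19). Of the 36 measured redox genes, 12 passed the test as higher in seu ant and 1 as lower, with a median of 0.26. The higher ones included the methionine sulfoxide reductases MSRB5, which rose by 2.66 (standard error 0.50, limma adjusted p = 0.00187) and whose changes of 1.21 in seu and 1.30 in ant did not pass, and MSRB9, with a rise of 2.66 (standard error 0.47, limma adjusted p = 0.00121) that was accompanied by a rise of 1.88 in ant (limma adjusted p = 0.0356). Without wild-type replicate 2, 7 redox genes passed as higher.

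**Figure D4:**
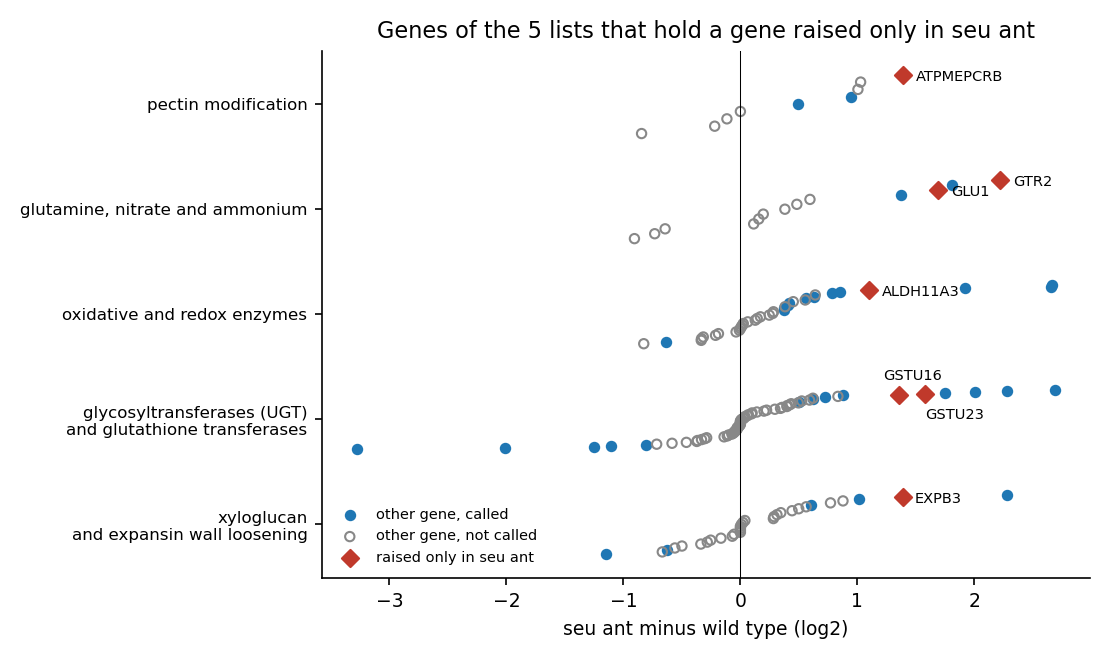
The difference between seu ant and wild type (horizontal axis, log2) for every measured gene of the 5 lists (rows) that hold a gene of the group. Red diamonds are the 7 genes of the group, filled blue points other genes that passed the test, and open points those that did not; the red points lie between 1.10 and 2.22, and in the 3 lower lists another gene had the largest difference.

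Of the chloroplast proteins, CRR42 (chlororespiratory reduction 42) and LrgB (AT1G32080) belonged to the group. CRR genes are needed for the chloroplast NADH dehydrogenase-like complex, which returns electrons to the photosynthetic chain. CRR42 measured 136, 87.9, 111 and 111 in wild type, 116, 130.2, 111 and 139.8 in seu, 84.5, 99.9, 69.2 and 82.4 in ant, and 238, 286, 263 and 271 in seu ant, a difference of 1.26 (standard error 0.13). The arrays of each genotype lay close together, the difference was 1.26 and 1.27 in the title sets, and the change in ant was -0.40. Among the 8 measured CRR genes, 4 passed the test as higher in seu ant and 0 as lower, CRR42 included, with a median of 0.42. The other 3 were NdhL, which rose by 2.05 (standard error 0.44, limma adjusted p = 0.00468), NdhS, which rose by 0.84 (standard error 0.22, limma adjusted p = 0.0143), and CRR41, which rose by 0.78 (standard error 0.17, limma adjusted p = 0.00479), whereas CRR4, CRR21, CRR22 and CRR28 had changes between -0.24 and 0.05 that did not pass. None of the 10 measured light-harvesting and photosystem genes belonged to the group, and 4 of these passed as higher. LrgB measured 87.8, 101, 122 and 181 in wild type, 199.8, 148, 206 and 118 in seu, 108, 119, 105 and 115 in ant, and 477, 378, 285 and 371 in seu ant, a difference of 1.65 (standard error 0.23), with 2.17 in the first title set and 1.13 in the second.

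LPR2 (Low Phosphate Root2), known from the root response to low phosphate, measured 88.3, 141, 139 and 172 in wild type, 221, 183, 169.7 and 164 in seu, 107, 113, 109 and 86.8 in ant, and 398, 385, 344 and 337 in seu ant. Its difference was 1.47 (standard error 0.17), and the changes of 0.48 in seu and -0.34 in ant had opposite signs inside the window. LPR1 had a change of -0.79 in seu ant that did not pass (standard error 0.43, limma adjusted p = 0.225). HOS3-1 (AT4G36830) measured 40.2, 136, 12.9 and 70.0 in wild type and 154, 199, 87.3 and 168 in seu ant, a difference of 1.55 (standard error 0.51), and its groups overlapped.

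**Figure D5:**
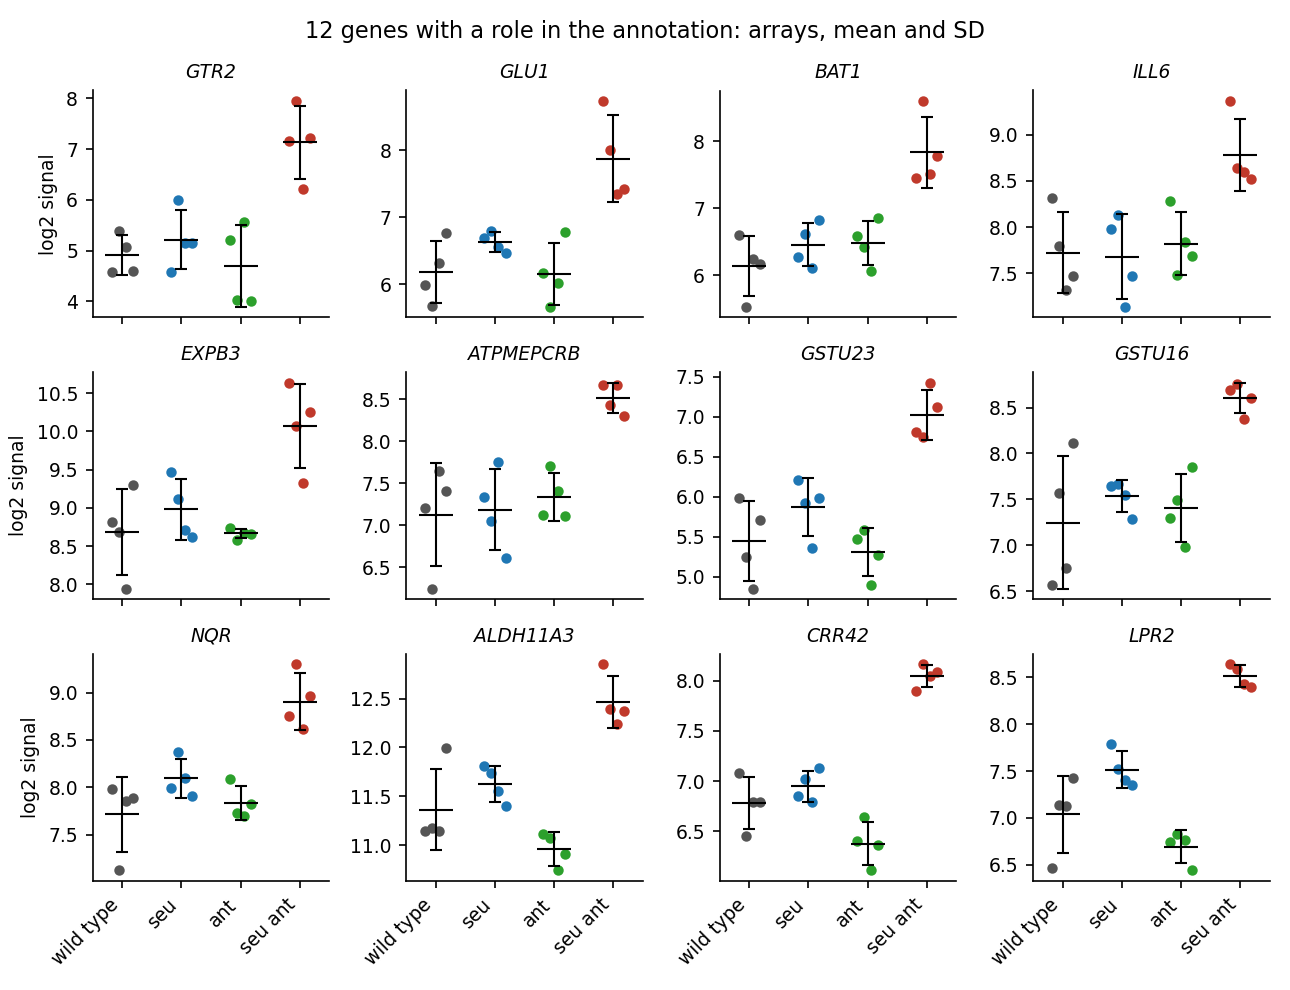
Log2 signal (vertical axis) of 12 named genes of the group on each array (points, 4 per genotype), with the mean and standard deviation in black. In 11 of the 12 every seu ant point is above all other points; in EXPB3 the lowest seu ant point is below the highest seu point.

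Other named genes among the 25 with the largest differences were carried here under a locus number only, and their roles were not looked up. AT3G47295 had 222, 229, 249 and 521 in wild type and 1717, 1263, 877 and 1364 in seu ant, a difference of 2.16 (standard error 0.28). AT5G57785 had 367, 268, 534 and 509 in wild type and 954, 2044, 1637 and 1842 in seu ant, a difference of 1.94 (standard error 0.28). AT2G31790 had 116, 102, 137 and 154 in wild type and 834, 342, 366 and 382 in seu ant, a difference of 1.83 (standard error 0.27). In all 3 the lowest seu ant array was above the highest array of every other genotype. AT5G43150, AT1G03820, AT5G02230, AT1G22885, AT1G12845, AT2G01610, AT1G28260, AT1G69760, AT3G13660 and AT5G55620 differed by 1.46 to 1.77, and in AT5G43150 and AT2G01610 a single-mutant array reached into the range of seu ant.

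At the edge of the rule the values pass smoothly. The members with the smallest differences were AT5G41810 at 1.001, AT2G28810 at 1.002 and 258332_at at 1.005, and the nearest probe sets outside were AT1G67850 at 0.999, BRH1 at 0.998 and OPCL1 at 0.993. On the window, 259008_at, AT2G15320 and 257460_at were just inside, with 0.499 in seu, 0.498 in seu and 0.498 in ant, and 249422_at, AT5G45650 and 263073_at were just outside, with 0.502 in ant, 0.505 in seu and 0.505 in ant.

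Of the 27 gene lists, 26 had a measured gene and 21 of these held no member of the group, among them the lists of cold and dehydration genes (14 measured, 8 higher and 0 lower in seu ant), starch and sugar genes (32 measured, 11 higher and 0 lower, and 6 or 7 higher without seu ant replicate 1, 2 or 4), cytochrome P450 genes (34 measured, 6 higher and 1 lower) and cell cycle genes (13 measured, 0 higher and 5 lower). Over all named genes 6.94% passed as higher and 10.7% as lower. No homeobox, MYB, WRKY, NAC, AP2/ERF, bHLH or bZIP factor on the lists was in the group. These lists measured only 9 homeobox, 10 MYB, 18 WRKY, NAC and AP2/ERF and 38 bHLH and bZIP genes. A factor among the 68 members with no gene named here would be missed. The 7 members on lists left 65 named members on none.

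By the order of protein-coding genes in the TAIR10.1 annotation, the 72 named genes were spread over the chromosomes, with 21 on chromosome 1, 15 on chromosome 2, 10 on chromosome 3, 10 on chromosome 4 and 16 on chromosome 5, and 0 pairs stood side by side. Of their 64 measured neighbours outside the group, 12 passed the test as higher in seu ant (18.8%) and 8 as lower (12.5%), with a median of 0.01. Over all named genes 6.94% passed as higher and 10.7% as lower. AT2G32560 was the only member whose gene had a second probe set here: the member differed by 1.08, and the other, at a wild-type level of 4.06 and thus close to the floor, by 0.19 (standard error 0.14, limma adjusted p = 0.388).

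The single pollen marker AT5G45880 varied widely within genotypes, so its level can be set beside the group array by array. In wild type it measured 1167, 3392, 442 and 219, where the median of the group relative to the wild-type mean was -0.03, -0.19, 0.06 and 0.18. In seu it measured 30.0, 497, 6.01 and 66.4 beside 0.38, 0.48, 0.20 and 0.21. In ant it measured 1651, 1100.5, 56.8 and 336 beside 0.15, 0.06, -0.08 and 0.09, and in seu ant 30.5, 71.7, 108 and 13.8 beside 1.55, 1.44, 1.02 and 1.25. The part of tissue composition in the values of the group was not tested.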

How the data were processed

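The 16 ATH1 arrays were assigned to 4 genotypes from their labels, with replicate numbers in accession order, which pair no samples. The labels name no batch. Numbers that open the titles run on without a gap, and in their order the sequence of genotypes repeats after 8 arrays. The 2 sets of 8 arrays, with 2 of each genotype, are called title sets. They were tried as a block and each alone, a choice made after seeing the data. The p-values measure the spread between pools. The authors' deposited values are signal intensities on a linear scale. The submitters' notes list MAS5, with a version not given in the sources used here. Arrays had been scaled to a common trimmed mean of 494.6 to 495.7. The authors' own tests used loess-normalized values, not used here.

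After leaving out 64 AFFX control probe sets, values below a floor of 16 were raised to it and put on the log2 scale. limma 3.58.1 (R 4.3.3) fitted 1 mean per genotype to 22746 probe sets, with p adjusted by Benjamini-Hochberg over all of them. A call needs an adjusted p under 0.05 together with a difference over 0.35 on that scale. Standard errors come from this fit, with n = 4 arrays per genotype. The script was tested on simulated data. The number of arrays limits the precision.

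The platform annotation paired 13513 probe sets with 1 gene and the study's supplement paired another 343, while 503 had several genes and 8387 none. Gene lists were matched by symbol or name, after which 11 false matches were left out. Others remain, such as PAB4 on the cell cycle list and PIP5K3 on the aquaporin list. Genes carried by a locus number only can be missed, so the list counts are approximate. Genes named are the 25 largest differences among named members, members on the lists, members at the limits of the rule and of the wild-type level and those with a second probe set; ILL6, NQR and CRR42, the CRR and LPR relatives and list genes outside the group were added for their roles or sizes after their values were seen. The members and lists were chosen with earlier results of these data known. Promoter sequences were not used here. Alternatives were other floors, scalings, filters and limits of the rule, an intensity trend in the prior variance, and leaving out each array. Tables and plots used Python 3.11.15 with matplotlib 3.10.9.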

Additional observations from a re-analysis of the deposited data

Results flagged for a closer look

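Among 29 named genes of the group, the arrays of each genotype were examined for 1 array that stands far from the other 3, which gave 116 sets of 4 arrays. In 8 of them the gap to the nearest array took up more than 0.829 of the whole range, where chance gives about 1 in 20 sets. In wild type, replicate 4 was high in AT3G47295 (ratio 0.867, signal 521 beside 222 to 249) and in ALDH11A3 (ratio 0.956, signal 4071 beside 2259 to 2318). In seu, replicate 2 was high in AT3G47295 (ratio 0.957, signal 537 beside 352 to 358) and in AT1G22885 (ratio 0.896, signal 173 beside 115 to 120), and replicate 3 was low in AT3G13660 (ratio 0.829, signal 25.3 beside 74.3 to 92.8). In ant, replicate 3 was high in AT5G17540 (ratio 1, signal 46.5, the other 3 being under the floor at 4.51 to 11.9) and replicate 4 was high in AT5G43150 (ratio 0.898, signal 86.7 beside 52.5 to 55.2). In seu ant, replicate 1 was high in AT2G31790 (ratio 0.877, signal 834 beside 342 to 382).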

How the results depend on the processing

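The group was sensitive to its limits. It held 245 probe sets with a difference of at least 0.8 and 87 with at least 1.2, and 56 with a window of 0.35 and 294 with one of 0.7. Under other floors nearly all of the 144 were kept: the group held 166 with a floor of 32 (142 of them shared) and 142 with a floor of 8 (141 shared). Under other scalings the size was near 144 but the probe sets changed. There were 129 with each array centred on its median (86 shared) and 135 after quantile normalization (98 shared). Without 1 array it ranged from 128 to 178, and the fewest shared, 96, came without wild-type replicate 4. Only 32 members were kept without any 1 array, and 27 of these also under the floors, the scalings and the filter on dim probe sets. With the title set as a block, calls were 1880 higher and 2624 lower in seu ant, 290 and 208 in seu and 416 and 669 in ant. Each title set alone gave 169 and 149 probe sets (49 and 64 shared). Named members kept their direction under every setting run except AT2G20870, at -0.0958 in the second title set alone. Centring on the median moved the median of all probe sets in ant to 0.14, from -0.02. Higher against lower calls then became 2316 to 1758 in seu ant (1887 to 2597 as reported), 420 to 134 in seu (290 to 208) and 1101 to 297 in ant (430 to 690); quantile normalization gave 481 to 475 in ant. Without 1 array, calls ranged from 1642 to 1941 higher and 2126 to 2591 lower in seu ant, 162 to 306 higher and 112 to 223 lower in seu, and 214 to 448 higher and 313 to 781 lower in ant; the cause was not tested. No paired analysis by replicate was possible because the labels give no shared replicate numbers. The title set, used as a block, is a split by the order of the titles that the labels do not mark. The number of arrays limits what can be told from these values, and dim probe sets near the floor carry only bounds.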
